A study of Homo sapiens with 6 samples.

Results

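The clade B serpins are a family of protease inhibitors whose genes lie in one cluster on chromosome 6p25 and another on 18q21, and 10 of them were followed here among the 15379 gene symbols of the deposited count table. They were chosen by symbol as a family (SERPINB1 to SERPINB9 and SERPINB13), with the values of this same comparison already known, so the changes and calls below describe the family and are not independent evidence about it. The cells were HaCaT, an immortalised line of human keratinocytes. Cells of the heated group were brought to 41C for 1 hour on each of 3 days, and cells of the control group were kept at 37C on the same schedule, with 3 libraries in each group. The genotype label is not applicable in both groups, no drug is named, and the line and the messenger RNA library kit were shared. Whether the replicates came from separate cultures is not stated, so the p-values measure the spread between these libraries, which may be technical, and the time of RNA isolation after the final heating is not stated either.

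Serpins inhibit proteases by offering an exposed reactive centre loop as bait, and after cleavage of that loop they trap the protease in an inactive complex. Members of clade B lack a classical signal peptide and act mainly inside cells, where they guard against proteases that leak from lysosomes or granules. In squamous epithelia they are abundant, and SERPINB3 and SERPINB4 are known as the squamous cell carcinoma antigens. SERPINB3 inhibits lysosomal cysteine proteases such as cathepsins K, L and S, and SERPINB4 inhibits chymotrypsin-like serine proteases such as cathepsin G and mast cell chymase.

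The SERPINB3 and SERPINB4 genes are near-identical, which bears on how far their counts can be told apart. In GENCODE release 29, on GRCh38, SERPINB3 lies at chr18:63655197-63661963 and SERPINB4 at chr18:63637259-63644298, both on the minus strand. Their coding sequences are both 1170 bases long and differ at 56 positions (95.2% identical), whereas the next most alike pair of members, SERPINB8 and SERPINB9, is 73.1% identical. The differences are not evenly spread, with 7 among the first 390 bases, 25 among the next 390 and 24 among the last 390. The stretch of 150 coding bases with the most differences, 20, is shown because it leads into and covers much of the reactive centre loop, where the inhibitors meet their target proteases. It holds coding bases 943 to 1092, counted from the start codon, and capitals mark the bases at which the genes differ (SERPINB3 at chr18:63655738-63655887, SERPINB4 at chr18:63637800-63637949, both on the minus strand, from GENCODE transcripts).
SERPINB3: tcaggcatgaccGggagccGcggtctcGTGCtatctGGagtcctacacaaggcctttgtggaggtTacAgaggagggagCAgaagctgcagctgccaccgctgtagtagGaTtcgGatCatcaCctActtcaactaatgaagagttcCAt
SERPINB4: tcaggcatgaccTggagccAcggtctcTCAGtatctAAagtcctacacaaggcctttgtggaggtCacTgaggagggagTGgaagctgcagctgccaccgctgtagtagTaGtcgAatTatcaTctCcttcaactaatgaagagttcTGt

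Of all stretches of 50 bases in the SERPINB3 transcript 23.9% also occurred unchanged in that of SERPINB4, of stretches of 100 bases 3.4%, and of stretches of 150 bases 0. Neither the read length nor the handling of reads that match both genes is known here, so the separate values of the pair are uncertain and their sum is given as well. The sequence ahead of the genes is also nearly shared: in the 250 bases before the RefSeq starts the genes differ at 3 positions (98.8% identical). Whether this likeness bears on the transcript levels of the pair was not tested. The part of it upstream of every annotated start, 180 bases, holds 1 of these differences, in capitals, and is shown as a description (RefSeq, GRCh38.p14, minus strand, SERPINB3 at chr18:63661964-63662143 and SERPINB4 at chr18:63644327-63644506).
SERPINB3: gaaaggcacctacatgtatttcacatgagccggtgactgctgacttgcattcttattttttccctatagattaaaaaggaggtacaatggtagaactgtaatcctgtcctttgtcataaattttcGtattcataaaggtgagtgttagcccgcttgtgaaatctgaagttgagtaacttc
SERPINB4: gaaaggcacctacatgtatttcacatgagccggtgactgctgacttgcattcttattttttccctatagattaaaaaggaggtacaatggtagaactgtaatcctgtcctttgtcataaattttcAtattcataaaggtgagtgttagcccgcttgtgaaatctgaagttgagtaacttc

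The count totals ran from 20139202 to 20856144 at 41C and from 19659112 to 19745664 at 37C. All 6 keratinocyte markers looked at (KRT5, KRT14, KRT6A, TP63, DSG3 and LAMB3) were present in every library, with a summed level of 5844 to 6156 CPM (counts relative to the library total, scaled by TMM factors) at 41C and 4991 to 5555 CPM at 37C. KRT14, KRT6A and LAMB3 rose, and the part of this in the serpin values was not tested. Markers of melanocytes summed to 1.71 to 2.96 CPM at 41C and 1.86 to 2.58 CPM at 37C, those of fibroblasts to 0.728 to 1.01 and 0.962 to 1.52 CPM, and those of leukocytes to 0.340 to 0.720 and 0.552 to 0.961 CPM. DCT, PDGFRB, LUM, PTPRC, CD3E and LYZ among them were at 0.101 CPM or less in every library. Endothelial markers summed to 18.7 to 22.7 CPM at 41C and 20.7 to 30.2 CPM at 37C, nearly all from CDH5, while PECAM1 reached at most 0.405 CPM.

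The family spans a wide range of levels in these cells. By the authors' FPKM, which is a level per gene length, the non-inhibitory tumour suppressor SERPINB5 (maspin) was the most abundant member, with 171 ± 5.18 FPKM at 41C and 163 ± 3.50 FPKM at 37C (SD, n = 3 each). It was apart from every other member in all 6 libraries. SERPINB13, an inhibitor of cathepsins L and K also known as headpin, followed with 74.7 ± 0.794 FPKM at 41C and 88.2 ± 8.85 FPKM at 37C. SERPINB1, an inhibitor of neutrophil elastase, came next with 57.2 ± 6.72 FPKM at 41C and 79.2 ± 9.77 FPKM at 37C. Its range overlapped that of SERPINB13 at 37C but not at 41C.

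SERPINB6, an inhibitor of cathepsin G, and SERPINB7, a member whose loss causes a palmoplantar keratoderma, lay close together. SERPINB6 had 24.3 ± 1.64 FPKM at 41C and 28.4 ± 1.61 FPKM at 37C, and SERPINB7 had 23.6 ± 0.345 FPKM at 41C and 24.2 ± 0.299 FPKM at 37C, so that they were apart at 37C and overlapped at 41C. SERPINB2, an inhibitor of the plasminogen activators, had 18.2 ± 0.546 FPKM at 41C and 17.4 ± 0.545 FPKM at 37C and was apart from its neighbours in the order. SERPINB8, an inhibitor of furin, had 5.75 ± 0.218 FPKM at 41C and 5.82 ± 0.266 FPKM at 37C. SERPINB3 and SERPINB4 were the lowest of the members with more than traces. SERPINB3 had 2.65 ± 0.163 FPKM at 41C and 5.59 ± 1.25 FPKM at 37C, overlapping SERPINB8 at 37C only, and SERPINB4 had 1.65 ± 0.265 FPKM at 41C and 3.16 ± 0.563 FPKM at 37C. SERPINB9, the granzyme B inhibitor of lymphocytes and their targets, had a total of 1 count at 41C and 2 counts at 37C. Its change was not detectable at this depth, and no fold is given.

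**Figure D1:**
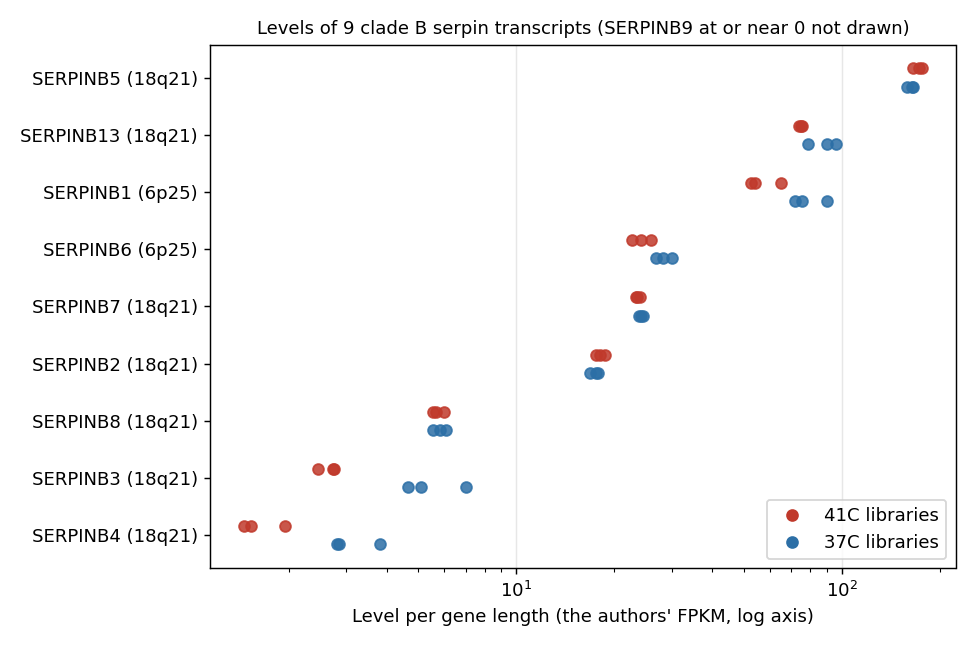
Levels of 9 clade B serpin transcripts in each library as the authors' FPKM (log axis), with 41C libraries above 37C libraries in each row and members ordered by mean level. SERPINB5 stands alone near 170 FPKM at 41C, SERPINB6 and SERPINB7 lie together near 24 FPKM at 41C, and SERPINB3 and SERPINB4 lie lowest.

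SERPINB3 and SERPINB4 were the members that differed most between temperatures, and both fell at 41C. SERPINB3 had 4.70, 4.22 and 4.73 CPM in 41C replicates 1, 2 and 3, against 8.58, 11.9 and 7.95 CPM in 37C replicates 1, 2 and 3. Every 41C library lay below every 37C library, and 37C replicate 2 stood highest. The level at 41C was 0.481 of that at 37C (log2 change -1.06 ± 0.16 SE, edgeR adjusted p = 0.00408 over the 12056 genes tested). SERPINB4 had 2.5, 2.62 and 3.37 CPM at 41C, against 4.82, 6.47 and 4.81 CPM at 37C, again with no overlap and with 37C replicate 2 highest. Its level at 41C was 0.527 of that at 37C (log2 change -0.92 ± 0.19 SE, edgeR adjusted p = 0.0228). SERPINB3 did not pass with 41C replicate 2 left out (edgeR adjusted p = 0.0894), and SERPINB4 did not with 41C replicate 1, 41C replicate 2 or 37C replicate 2 left out (edgeR adjusted p = 0.155, 0.197 and 0.211). In bulk RNA, fewer cells with a transcript and less of it per cell cannot be told apart.

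Taken as a sum, which does not depend on how reads were split between them, the pair had 150, 141 and 161 counts at 41C, against 267, 363 and 252 counts at 37C. These are 7.38 ± 0.653 CPM at 41C and 14.8 ± 3.06 CPM at 37C (SD, n = 3 each), a log2 change of -1.01 ± 0.14 SE (edgeR adjusted p = 0.00404). SERPINB3 held 58.4 to 65.3% of the pair's counts at 41C and 62.3 to 64.7% at 37C. The exact (Clopper-Pearson) 95% intervals of these shares, which cover counting error only, overlapped among all 6 libraries, from 50.4 to 72.9% at 41C and from 56.0 to 69.8% at 37C. SERPINB3 also shares 620 exonic bases with SERPINB11, which lies on the opposite strand and has no row among the counts used here. Without 41C replicate 2 the sum no longer passed (log2 change -0.96 ± 0.17 SE, edgeR adjusted p = 0.0885).

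Of the 10 members 9 had enough counts to be tested, and 2 of them passed the threshold of an adjusted p of 0.05, SERPINB3 and SERPINB4, both lower at 41C. The reads of this pair may be shared, so their 2 entries in this and the following counts of members may not be separate. Of all genes tested 1.09% passed in either direction, 0.265% as lower at 41C and 0.821% as higher, and 0 members passed as higher. An unadjusted p under 0.05 was reached by 5 of the 9 members (SERPINB1, SERPINB3, SERPINB4, SERPINB6 and SERPINB13) and by 13.7% of all genes tested. The median log2 change was -0.21 over the 9 members and 0.00 over all genes tested. In 6 of the 9 members the libraries of one temperature all lay on one side of the other, with 41C below in 5 and above in 1, while 20.0% of all genes tested did so in either direction, 8.84% with 41C below and 11.2% with 41C above. The count of 2 rested on single libraries: leaving out 41C replicate 1 or 37C replicate 2 left 1 (SERPINB3), leaving out 41C replicate 2 left 0, and leaving out 37C replicate 1 or 37C replicate 3 gave 3 or 4.

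**Figure D2:**
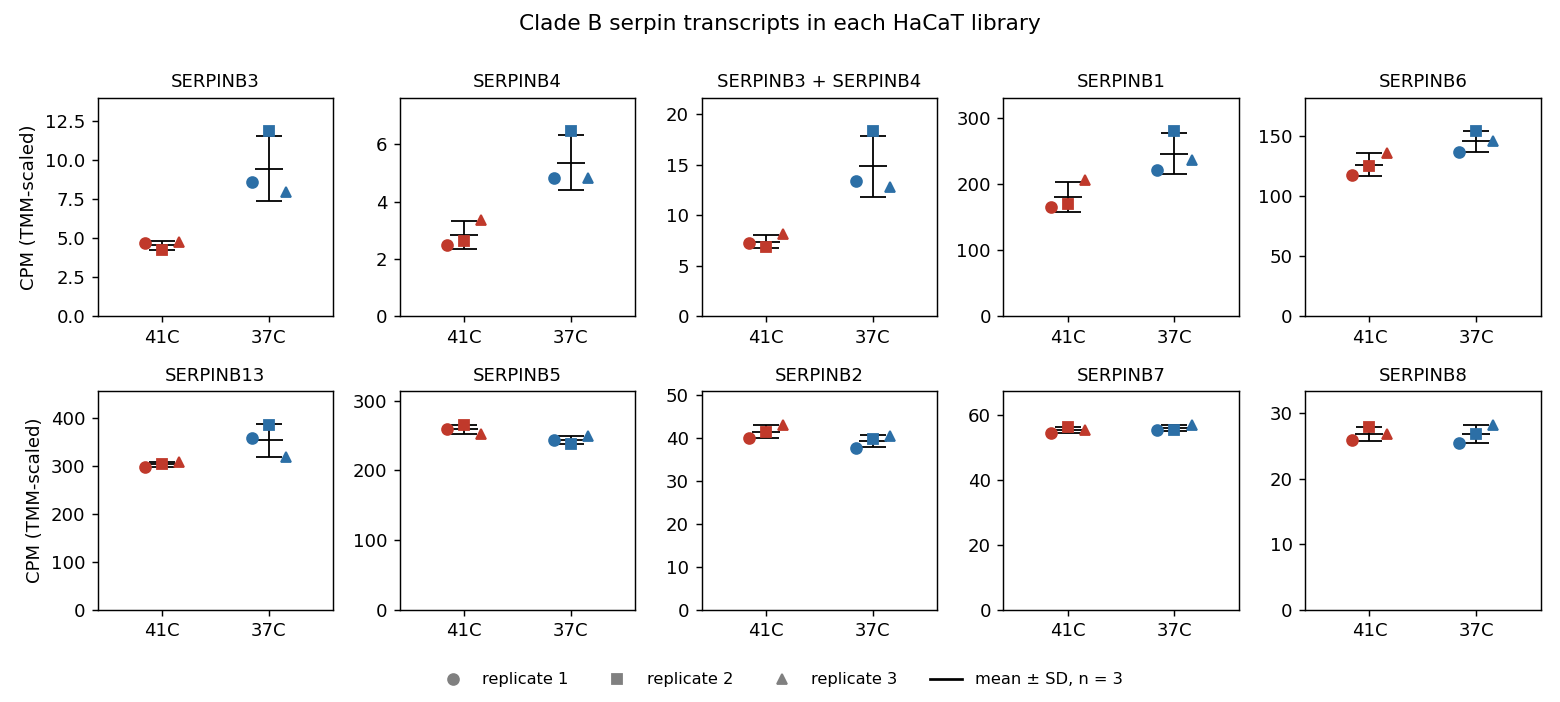
TMM-scaled CPM of each clade B serpin in the 41C and 37C libraries (points, shaped by replicate; black bars are mean ± SD, n = 3; each axis starts at 0). The 41C points of SERPINB3, SERPINB4, SERPINB1, SERPINB6 and SERPINB13 lie below all their 37C points, while those of SERPINB2, SERPINB7 and SERPINB8 overlap.

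SERPINB13, which like SERPINB3 inhibits lysosomal cysteine proteases, was lower at 41C in every library without passing. It had 297, 303 and 307 CPM at 41C, against 357, 385 and 317 CPM at 37C. The gap between the groups was small beside the spread at 37C, where replicate 3 came close to the 41C libraries. Its log2 change was -0.22 ± 0.06 SE (edgeR adjusted p = 0.102), and it passed without 37C replicate 3 (-0.29 ± 0.04 SE, edgeR adjusted p = 1.37e-05).

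The inhibitors of granule serine proteases encoded on 6p25 showed the same order of groups without passing. SERPINB1 (chr6:2832332-2842006, minus strand) had 164, 170 and 206 CPM at 41C, against 221, 280.5 and 236 CPM at 37C. No 41C library reached the lowest 37C library, and 41C replicate 3 was the highest at 41C. Its log2 change was -0.45 ± 0.12 SE (edgeR adjusted p = 0.185), and the spread within groups was wide for its level. SERPINB1 passed with limma-voom (log2 change -0.45 ± 0.09 SE, adjusted p = 0.0352). SERPINB6 (chr6:2948159-2972165, minus strand) had 117, 125 and 136 CPM at 41C, against 137, 154 and 146 CPM at 37C, so that the groups just failed to overlap. Its log2 change was -0.21 ± 0.06 SE (edgeR adjusted p = 0.116), and it passed when 37C replicate 1 was left out (-0.26 ± 0.06 SE, edgeR adjusted p = 0.0267) and also when 37C replicate 3 was (-0.21 ± 0.06 SE, edgeR adjusted p = 0.0312). Summed over the 6p25 members, the level was 306 ± 31.5 CPM at 41C and 391 ± 39.2 CPM at 37C (SD, n = 3 each).

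The remaining members of the 18q21 cluster differed little. SERPINB5 was the 1 member whose 41C libraries all lay above the 37C libraries, with 260, 266 and 253 CPM at 41C, against 244, 238 and 249 CPM at 37C. The difference was small (log2 change 0.09 ± 0.04 SE) and did not pass (edgeR adjusted p = 0.368). SERPINB2 had 40.0, 41.2 and 43.0 CPM at 41C, against 37.5, 39.6 and 40.4 CPM at 37C, and the groups overlapped (log2 change 0.08 ± 0.07 SE, edgeR adjusted p = 0.654; 0.04 without 37C replicate 1 and 0.05 without 41C replicate 3).

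SERPINB7 and SERPINB8, the members known from inherited skin disorders, were the closest to equal. SERPINB7 had 54.4, 56.1 and 55.3 CPM at 41C, against 55.4, 55.3 and 57.0 CPM at 37C, and SERPINB8 had 25.9, 27.9 and 26.8 CPM at 41C, against 25.4, 26.9 and 28.3 CPM at 37C. The 95% interval of the change, 41C over 37C, ran from 0.910 to 1.07 for SERPINB7 and from 0.895 to 1.12 for SERPINB8, so changes within these bounds could not be seen. The sign of both log2 changes, -0.02 and 0.00075, turned under some alternatives. Over all 18q21 members the summed level was 693 ± 8.47 CPM at 41C and 734 ± 29.4 CPM at 37C (SD, n = 3 each).

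The make-up of the family total differed modestly. The 6p25 members held 30.6 ± 2.10% of the family's counts at 41C and 34.7 ± 1.75% at 37C, and SERPINB5 held 26.0 ± 1.36% at 41C and 21.7 ± 1.64% at 37C. SERPINB3 and SERPINB4 together held 0.738 ± 0.0487% at 41C and 1.31 ± 0.193% at 37C (SD, n = 3 each). The members with the largest fold change among the 9 tested were a small part of the family's counts.

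**Figure D3:**
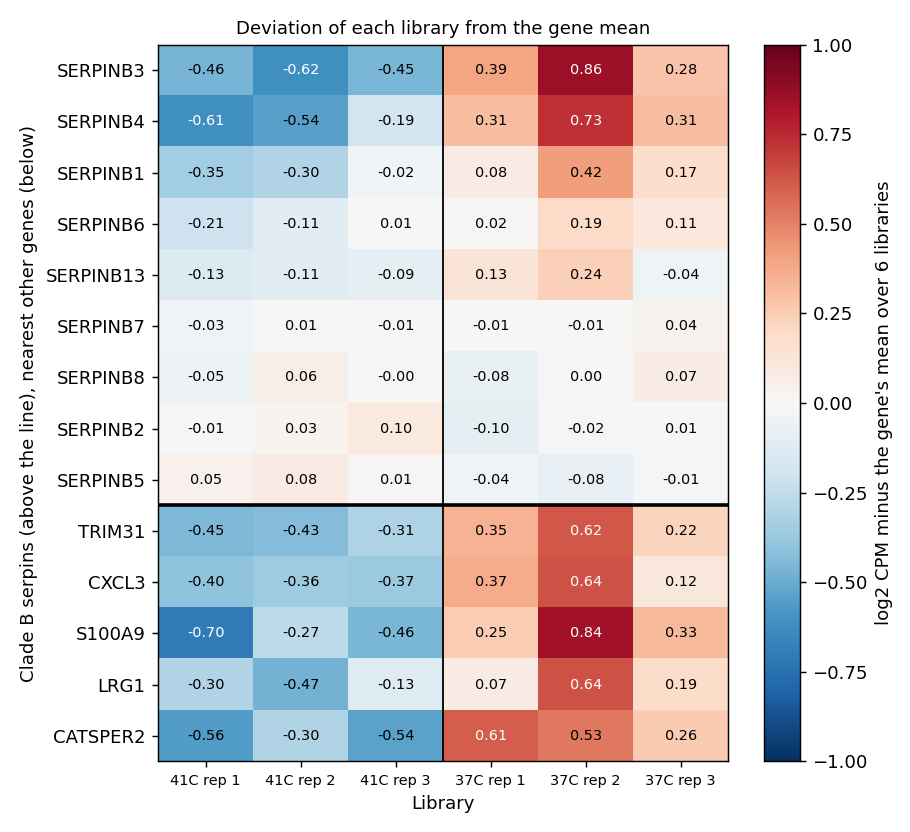
Deviation of log2 CPM in each library (columns, 41C left, 37C right) from the gene's own mean over 6 libraries, for 9 clade B serpins (above the line) and the 5 genes nearest in profile to the sum of SERPINB3 and SERPINB4 (below). The cells of 37C replicate 2 are the highest in the rows of SERPINB3, SERPINB4, SERPINB1, SERPINB6 and SERPINB13.

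Among all genes tested 37C replicate 3 stood most apart, as the highest library for 20.6% and the lowest for 23.3%, and differed most from its group (mean chi-square per gene of 10.7 and 7.47 against 37C replicates 1 and 2, and 3.77 between those). Left out, it took the number of genes past the threshold to 805, against 131 with all libraries. It was the highest library for 2 of the 9 members and the lowest for 0. 37C replicate 2 was the highest of all libraries for 5 of the 9 members tested (SERPINB1, SERPINB3, SERPINB4, SERPINB6 and SERPINB13), as it was for 16.5% of all genes tested. 41C replicate 1 was the lowest for 5 members, as it was for 15.5% of all genes tested. In the 5 members highest in 37C replicate 2 every 41C library lay below every 37C library. Smaller log2 changes of the same sign without 37C replicate 2 were thus fixed in advance. They were -0.86 ± 0.15 for SERPINB3, -0.77 ± 0.20 for SERPINB4, -0.35 ± 0.09 for SERPINB1, -0.17 ± 0.07 for SERPINB6 and -0.16 ± 0.06 for SERPINB13 (SE). Of these SERPINB3 passed (edgeR adjusted p = 0.0262).

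**Figure D4:**
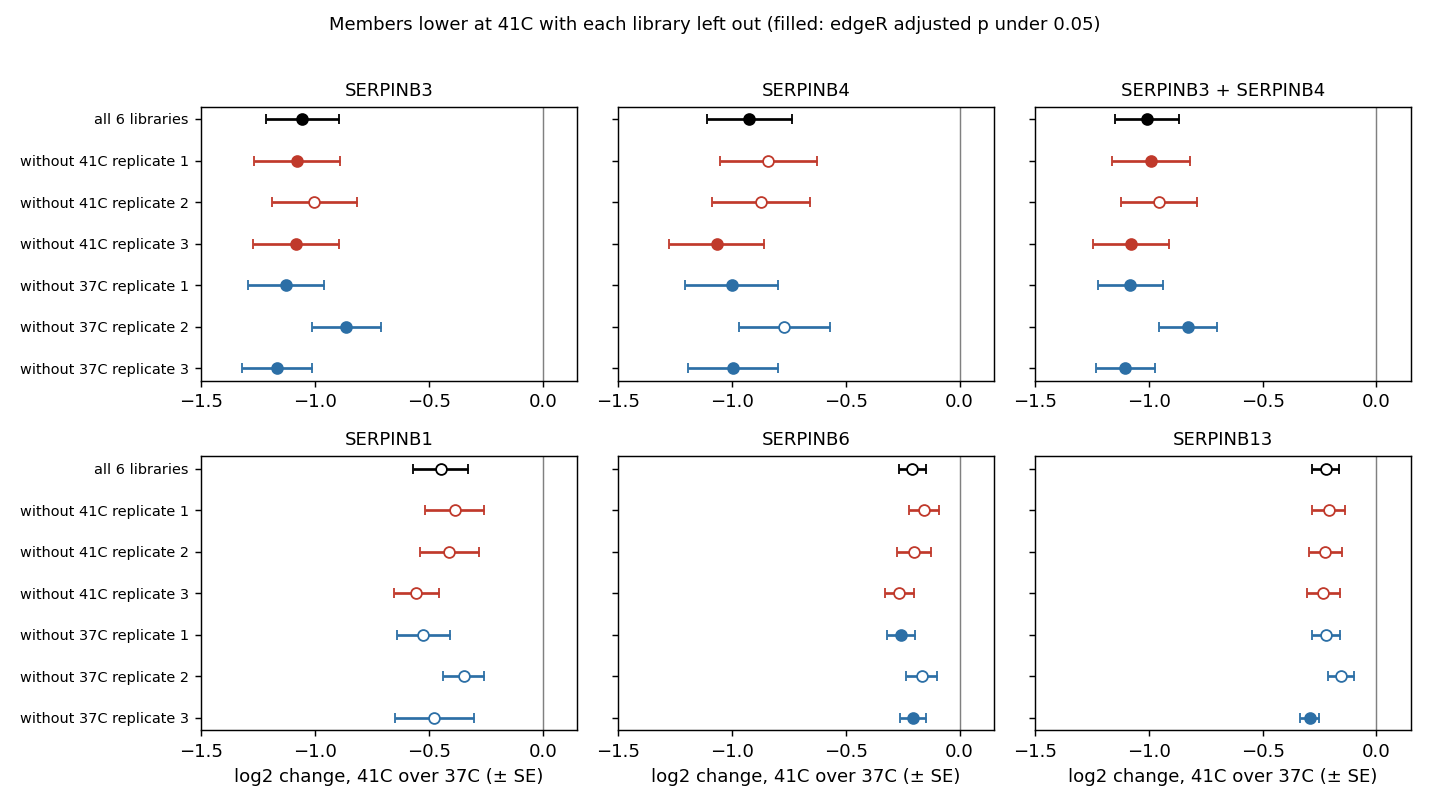
Log2 change, 41C over 37C, with its SE for SERPINB3, SERPINB4, their sum, SERPINB1, SERPINB6 and SERPINB13, with all 6 libraries (top row of each panel) and with each library left out; filled points passed an edgeR adjusted p of 0.05. All the points lie below 0, which was fixed in advance because the groups did not overlap, and which are filled changes with the library left out.

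The genes whose profile over the 6 libraries was nearest to that of the SERPINB3 and SERPINB4 sum came from several families. Nearness was the root mean square difference of log2 CPM after each gene's own mean was taken off, ranked over 10982 genes. TRIM31, a ubiquitin ligase of epithelia, was nearest (difference 0.112), with 1.84 ± 0.104 CPM at 41C and 3.30 ± 0.493 CPM at 37C (SD, n = 3 each). The neutrophil-attracting chemokine CXCL3 (0.149), the calcium-binding alarmin S100A9 (0.166), the secreted glycoprotein LRG1 (0.202) and the sperm channel gene CATSPER2 (0.209) followed. They were chosen for likeness to a sum that fell at 41C, which fixes their direction, so their tests are a description only. Of these S100A9 and CATSPER2 passed as lower at 41C (log2 change -0.97 ± 0.17 SE, edgeR adjusted p = 0.0344, and -0.97 ± 0.20 SE, edgeR adjusted p = 0.0290), while TRIM31, CXCL3 and LRG1 did not (edgeR adjusted p = 0.0639, 0.0707 and 0.0974). Both calls ended with any 1 of the 41C libraries left out, at edgeR adjusted p = 0.0996 to 0.158 for S100A9 and 0.116 to 0.159 for CATSPER2, and that of CATSPER2 also without 37C replicate 2 (0.172). A pseudogene nearly identical to CATSPER2 makes its value uncertain. TRIM31, CXCL3 and LRG1 passed when 37C replicate 3 was left out (edgeR adjusted p = 0.0138, 0.00733 and 0.0324), and LRG1 also when 37C replicate 1 was (0.00490).

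Genes of stressed or internal squamous epithelium, where the squamous cell carcinoma antigens are abundant, moved in both directions. The list was drawn up with the falls of S100A7, S100A9 and KRT13 in these libraries known, so it is not independent evidence of a direction. Of its 11 tested genes 3 passed as lower at 41C and 1 as higher, against 0.265% and 0.821% of all genes tested. An unadjusted p under 0.05 in edgeR was reached by 8 of the 11, against 13.7% of all genes tested. The log2 change was negative in 8 and positive in 3, and its median was -0.52, against 0.00 over all genes tested. The antimicrobial S100A7 had 4.27 ± 1.06 CPM at 41C and 9.79 ± 1.42 CPM at 37C (SD, n = 3 each), a log2 change of -1.20 ± 0.17 SE (edgeR adjusted p = 0.00408), and did not pass without 41C replicate 2 (0.0667). S100A9, given above, was another that fell. KRT13, a keratin gene of oral and oesophageal lining, fell as well (log2 change -0.64 ± 0.09 SE, edgeR adjusted p = 0.00170) and passed with each library left out. The wound keratin KRT6A rose (log2 change 0.21 ± 0.05 SE, edgeR adjusted p = 0.0421), and passed with 37C replicate 3 left out but with no other, at edgeR adjusted p = 0.0795 to 0.317. With all libraries KRT6A did not pass with upper-quartile scaling (0.0844), limma-voom (0.0511) or either fit on log2 FPKM (0.09997 and 0.104). S100A7 and KRT6A have close paralogs that may share their reads.

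Among 6 tested serpins of other clades 1 passed as higher at 41C and 0 as lower, against 0.821% and 0.265% of all genes tested. The median log2 change was 0.06. The collagen chaperone SERPINH1, a serpin without inhibitory function, had 367 ± 9.77 CPM at 41C and 319.7 ± 11.6 CPM at 37C (SD, n = 3 each), and rose by a log2 change of 0.20 ± 0.04 SE (edgeR adjusted p = 0.0382). Its call ended without any 1 of the libraries other than 37C replicate 3, at edgeR adjusted p = 0.0734 to 0.317. With all libraries it did not pass with upper-quartile scaling (0.0843), limma-voom (0.0508) or limma on log2(FPKM + 1) or log2(FPKM + 0.1) (0.105 and 0.109). SERPINE2, an inhibitor of thrombin and urokinase, did not pass (0.32 ± 0.08 SE, edgeR adjusted p = 0.0528), but passed when 37C replicate 1 or 37C replicate 3 was left out (0.0477 and 0.00322). SERPINF2, the plasmin inhibitor, had a log2 change of -0.35 ± 0.18 SE (edgeR adjusted p = 0.393).

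Protease inhibitors of other families and the proteases that clade B serpins inhibit gave no gene past the threshold in edgeR. Of 9 tested inhibitors 0 passed in edgeR, DESeq2 or limma-voom, though DESeq2 gave an adjusted p to only 6 genes of this list. An unadjusted p under 0.05 in edgeR was reached by 1 of the 9, against 13.7% of all genes tested, and the median log2 change was -0.01. The elastase inhibitor PI3 (elafin) had a log2 change of -0.60 ± 0.21 SE (edgeR adjusted p = 0.195), the cystatin CSTA one of -0.11 ± 0.05 SE (edgeR adjusted p = 0.366) and the membrane inhibitor SPINT1 one of 0.10 ± 0.05 SE (edgeR adjusted p = 0.377). Of 7 tested target proteases 0 passed in edgeR or limma-voom. DESeq2 gave an adjusted p to only 3 genes of this list, of which 2, FURIN and PLAU, passed as higher. In DESeq2 without independent filtering FURIN and PLAU did not pass, and PLAT, the gene of tissue plasminogen activator and a target of SERPINB2, passed as lower. PLAT, named after its values were seen, had a log2 change of -0.53 ± 0.15 SE in edgeR (adjusted p = 0.166). Of the 7 target proteases 4 had an unadjusted p under 0.05 in edgeR, against 13.7% of all genes tested, and the median was -0.11. Cathepsin S (CTSS), a target of SERPINB3, had 8.93 ± 0.828 CPM at 41C and 12.8 ± 2.23 CPM at 37C (SD, n = 3 each; log2 change -0.51 ± 0.13 SE, edgeR adjusted p = 0.0710). FURIN, the target of SERPINB8, and PLAU, the urokinase gene and target of SERPINB2, had log2 changes of 0.23 ± 0.06 SE and 0.14 ± 0.04 SE (edgeR adjusted p = 0.0806 and 0.111). With 37C replicate 3 left out CTSS, FURIN and PLAU passed (0.00453, 0.000921 and 0.0195), and CTSS also with 37C replicate 1 left out (0.0160). Cathepsin G, chymase, granzyme B and neutrophil elastase were on this list too, but have no row among the counts used here.

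**Figure D5:**
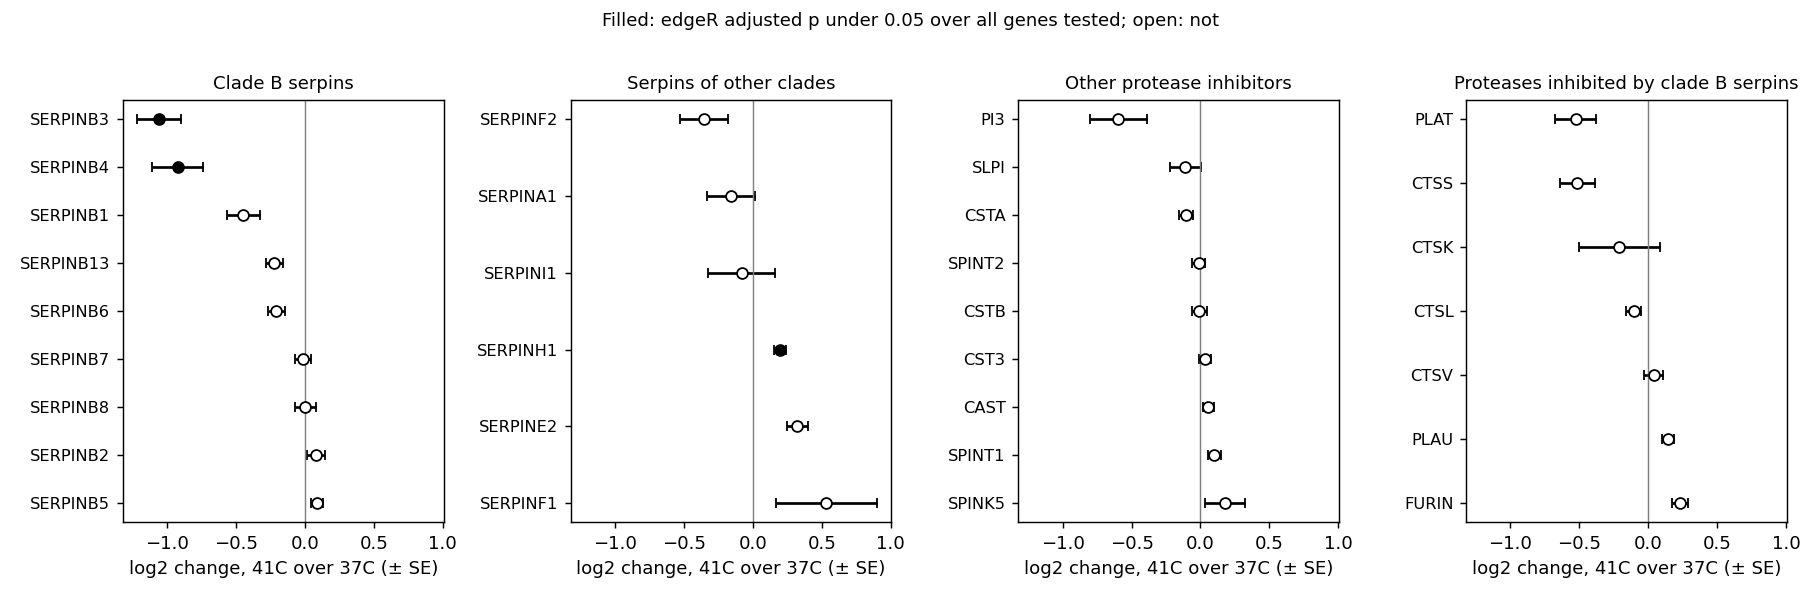
Log2 change, 41C over 37C, with its SE for the tested clade B serpins and 3 lists of related genes; filled points passed an edgeR adjusted p of 0.05 over all genes tested. SERPINB3 and SERPINB4 are the filled points left of 0, and SERPINH1 the one right of it.

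The wider set of cathepsins and the genes beside the serpin clusters gave median changes near 0. Of 12 tested cathepsins 0 passed in edgeR, DESeq2 or limma-voom, though DESeq2 gave an adjusted p to only 7 genes of this list, CTSS not among them. An unadjusted p under 0.05 in edgeR was reached by 1 of the 12, CTSS, against 13.7% of all genes tested, with a median log2 change of 0.04. CTSA and the aspartic protease CTSD, next by p-value, had log2 changes of 0.10 ± 0.05 SE each (edgeR adjusted p = 0.371 and 0.374), and passed with 37C replicate 3 left out (0.0498 and 0.0315). With 37C replicate 1 left out their log2 changes were 0.06 and 0.05. Of 13 tested neighbouring genes at 6p25 and 18q21 0 passed in edgeR, DESeq2 or limma-voom, though DESeq2 gave an adjusted p to only 3 genes of this list. An unadjusted p under 0.05 in edgeR was reached by 1 of the 13, with a median of -0.01. The neighbouring genes included the tubulin gene TUBB2A (-0.38 ± 0.17 SE, edgeR adjusted p = 0.344), the cell death inhibitor BCL2 (0.53 ± 0.28 SE, edgeR adjusted p = 0.416, and 0.88 ± 0.32 SE without 37C replicate 1) and WRNIP1, an ATPase that acts at stalled replication forks (-0.08 ± 0.05 SE, edgeR adjusted p = 0.498). The clade B genes outside the members, SERPINB10 and SERPINB12, had 0 to 6 counts in each library and were not tested. SERPINB2 shares 547 exonic bases with SERPINB10 on the same strand, and SERPINB8 shares 370 with HMSD, which had 8 to 18 counts in each library.

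Motifs were searched on both strands in the 250 bases before each RefSeq start, where all 10 members matched an entry. The AP-1 motif TGANTCA stood before SERPINB2, SERPINB5, SERPINB7, SERPINB8 and SERPINB13, 5 of the 10 members, and in 6.6% of 35116 promoters. The heat shock element pair GAANNTTC stood before SERPINB7 only among the members, and in 5.8% of promoters. The STAT motif TTCNNNGAA stood before SERPINB1, SERPINB7 and SERPINB8, and in 6.6% of promoters. The TATA box letters TATAAA stood before SERPINB2, SERPINB7, SERPINB8 and SERPINB9, and in 10.7% of promoters. Counted from the start, they lay at -30 to -25 in SERPINB2 and SERPINB9. In SERPINB8 they lay further off, at -142 to -137 (reversed) and -140 to -135. In SERPINB7 they lay at -127 to -122 and, reversed, at -33 to -28. None of the motifs searched stood in the windows of SERPINB3 and SERPINB4. SERPINB6 and SERPINB7 have several starts in RefSeq and were searched at each, which gives them more chances of a match.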

How the data were processed

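Poly(A) libraries of HaCaT RNA were made with a stranded kit, per the labels' protocols. The submitters' processing notes name GRCh38.p13, HISAT2 and Trimmomatic 0.36. How reads were counted, by strand or not and against which annotation, is not given in the sources. The deposited table holds whole-number read counts per gene symbol, not normalized. The deposited FPKM values were made by the authors from the same counts, by gene length and library total, and gave gene lengths and levels per length. All per-sample columns were used.

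Counts were tested at 41C against 37C with edgeR 4.0.16 (R 4.3.3): filterByExpr left 12056 genes, TMM scaling, robust quasi-likelihood fit, two-sided, Benjamini-Hochberg adjustment over all genes tested at 0.05. The sum of SERPINB3 and SERPINB4 was fitted with both rows replaced by it. Exact permutation of 3 against 3 libraries cannot go below p = 0.1. Libraries of a group differed by more than counting noise. The members, lists and motifs were chosen with earlier results of these data known. Named genes were all members, the called genes of each list or its smallest p-values up to 3, and the 5 nearest profiles; S100A9, CTSS and PI3 stand in more than one. A gene of the lists is not reported here and was left out of their counts. The procedure was tested on simulated data. Alternatives were DESeq2 1.42.0, limma-voom (limma 3.58.1), other scalings and filters, a replicate block, a gene length correction (spline, 4 degrees of freedom), limma on log2(FPKM + 1) or log2(FPKM + 0.1), and each library left out; DESeq2 without independent filtering was added after the data had been seen.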

Additional observations from a re-analysis of the deposited data

How the results depend on the processing

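Under the alternatives the fall of the SERPINB3 and SERPINB4 sum kept its sign, with log2 changes of -1.10 to -0.83 over them, and lost its call in 1 fit, given above; DESeq2 with independent filtering gave it no adjusted p. SERPINB4 lost its call in 5 fits, which besides the 3 left-out libraries given above were both FPKM fits (adjusted p = 0.0562 and 0.0516). DESeq2 passed SERPINB1, SERPINB6 and SERPINB13 (adjusted p = 0.0314, 0.0371 and 0.0144) and gave SERPINB3 and SERPINB4 no adjusted p; without independent filtering SERPINB3 and SERPINB4 passed and these 3 did not. The count of 131 genes past the threshold, of 12056 with an adjusted p, became 253 of 3155 with DESeq2. Without independent filtering DESeq2 gave 156 of 15377. The count was 284 of 15379 without a filter, 438 with the replicate block, 29 with log2(FPKM + 1) and 31 with log2(FPKM + 0.1). With 1 library left out it was 5 to 805, the lowest without 41C replicate 2 and the highest without 37C replicate 3. Upper-quartile scaling turned the main split of 99 higher and 32 lower into 57 and 53. The 2 members past the threshold became 4 without a filter, 1 with either FPKM fit and 0 to 4 with 1 library left out. The 5 genes past it over the other lists became 3 with limma-voom, 9 without a filter, 11 with the replicate block and 1 to 12 with 1 library left out. The replicate numbers are not said to pair libraries, so they were not taken as pairs in the main fit. Deviations of same-numbered libraries had correlations of 0.082, -0.019 and 0.077. These were not set against differently numbered libraries, so they cannot exclude pairing. With the replicate block 3 members passed, SERPINB6 among them (edgeR adjusted p = 0.0173). SERPINB8 changed sign with DESeq2 size factors (-0.0016), upper-quartile factors (-0.020), a CPM filter (-0.00035), DESeq2 without independent filtering (-0.00070), log2(FPKM + 1) (-0.015), log2(FPKM + 0.1) (-0.017), the length correction (-0.0044) and when 41C replicate 2 (-0.029) or 1 of the 37C replicates 1 (-0.043) and 2 (-0.0023) was left out; with 37C replicate 3 left out it was 0.040. With the length correction SERPINB7 (0.016) and CSTA (0.0095) also did. The cause of these changes was not tested. Depth limits SERPINB9, with 3 counts in all.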
